A study of Mus musculus with 6 samples.

Results

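The promoter regions examined here lie in a window of chromosome 17 from 34000000 to 37450000 (mm9), the part of the mouse genome that carries the major histocompatibility complex (MHC). Array probes lying in this window were joined into a region where their starts were at most 500 bp apart, and a run counted as a region when it held at least 3 probes. The window was chosen with earlier results of these data known. The rule itself used only the position and number of probes, after probes with an outlier flag had been removed. In this way 175 of the 22584 promoter regions of the array were obtained, with 1338 of its 174276 usable probes, while 44 further probes of the window fell into 30 runs of fewer than 3 probes and 3 carried an outlier flag. The files pair no position with a gene, while the RefSeq gene table at hand belongs to another genome build (GRCm38.p6), so that the label MHC could not be checked against gene names. The regions are therefore named by position and by their order number, from 1 to 175 along the chromosome.

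Adipose tissue was taken at 32 weeks of age from the offspring of C57BL/6J dams. The LC group had dams on a low chromium diet during gestation and lactation and received the control diet after weaning. The CC group had dams on the control diet and stayed on it, so that the diet at sampling was the same in both groups. All mice were female, with 3 mice per group and 1 array per mouse. On each array, DNA immunoprecipitated with an antibody against methylated cytosine (MeDIP) carried the dye Cy5 and untreated input DNA of the same mouse carried Cy3, and log2(MeDIP/input) was centered on the median of each array. A value above 0 thus means more antibody-enriched DNA than at the median probe of that array, and it is not a percentage of methylated CpGs. Adipose tissue is a mixture of cells, and more methylation per cell cannot be told apart from more cells of a type in which a promoter is methylated.

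The MHC, called H2 in the mouse, encodes proteins that show peptides to T cells. Class I molecules are found on most nucleated cells, whereas class II molecules belong mainly to macrophages, dendritic cells and B cells, all of which also reside in fat, and adipocytes can express class II genes as well. Between these families lies the class III segment, with complement genes and the tumor necrosis factor gene, and along the chromosome the mouse complex runs from H2-K and class II through class III to the class I families H2-D, H2-Q, H2-T and H2-M, with an olfactory receptor cluster at the far end. The RefSeq table lists 50 genes with an H2 symbol on chromosome 17, of which 38 code for protein. Many of them are near copies of each other, and it was not tested whether probes bind more than 1 copy.

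Some features of the arrays bear on every value below. The median input signal of the MHC probes, less local background, was 141 to 229 intensity units in LC and 322 to 454 in CC, without overlap. For the MeDIP signal the medians were 152 to 184 in LC and 184 to 283 in CC, and CC replicate 3 was scanned in this channel at 306 V against 279 V for all other arrays. On the slides, position 1 held every LC array and position 3 every CC array, and diet and slide position therefore cannot be told apart. The LC and CC arrays of replicate 1 shared slide 1 and those of replicate 2 slide 2. LC replicate 3 lay on slide 3 and CC replicate 3 on slide 4. With the slide as a block, the difference therefore rests on replicates 1 and 2 alone. Across the 175 regions the arrays correlated at 0.966 to 0.983 within LC, 0.989 to 0.992 within CC and 0.939 to 0.984 between the groups, and regions are not independent replicates. With 3 arrays per group, precision is limited by their number.

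In the control mice most MHC regions were below the center of the array when the probes of a region were averaged by their mean. The CC mean was above 0 in 69 of 175 regions (39.4%), against 40.5% of all regions and 44.9% of the 923 other regions of chromosome 17. Taken per array, the median MHC region was at -0.15 in CC replicate 1, -0.14 in CC replicate 2 and -0.15 in CC replicate 3. On the LC arrays it was at -0.19, -0.14 and -0.14. The LC and CC arrays overlapped, and the corresponding mean of the CC arrays over all regions was -0.15 ± 0.01 (SD, n = 3). The highest levels were less frequent in the MHC than elsewhere, with 12 regions (6.86%) above 0.5 on the log2 scale against 13.1% of all regions. The same held for the lowest levels, with 13 regions (7.43%) below -1 against 11.9%. These shares describe the same 3 mice and were not tested. With the median over the probes of a region instead, the median CC level of the MHC regions was 0.0085. Under other processing it lay between -0.25 (loess) and -0.0005 (the authors' values).

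**Figure D1:**
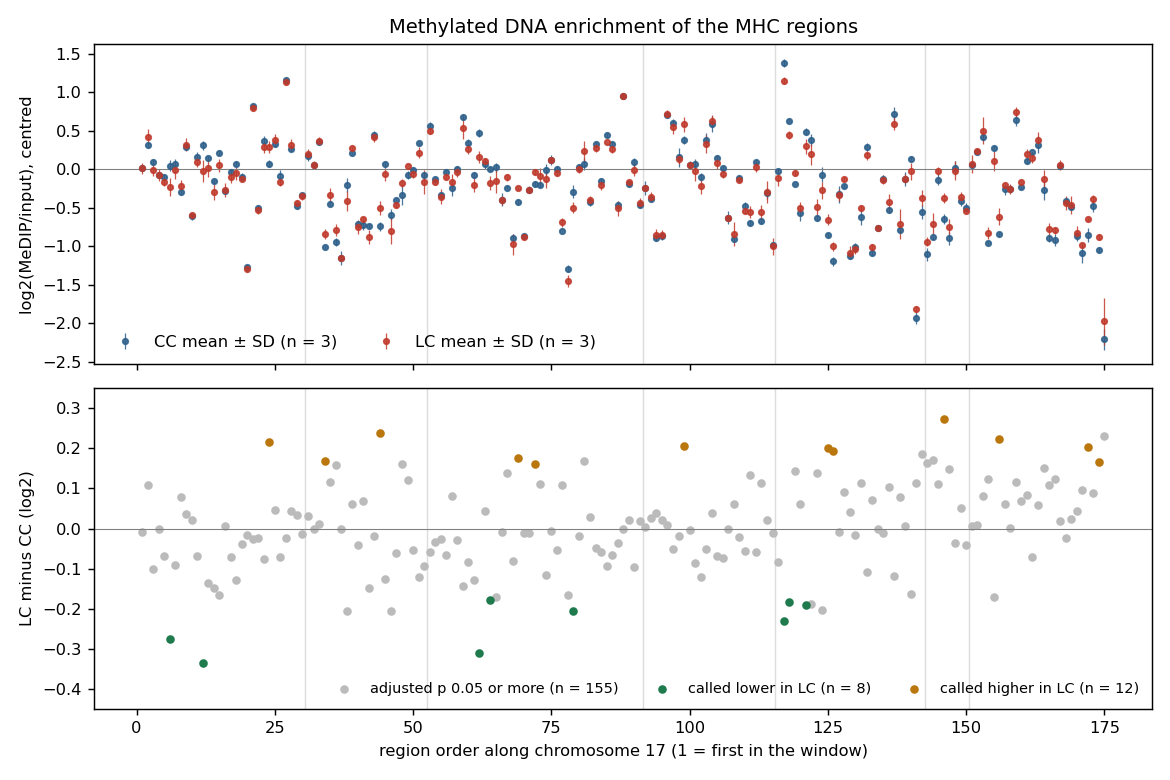
The upper panel plots log2(MeDIP/input) of each of the 175 MHC regions in order along the chromosome, as group means with SD over 3 arrays. The lower panel plots the LC minus CC difference on the log2 scale, with 8 regions called lower and 12 called higher in LC, and grey lines mark the borders of the 500 kb intervals.

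The region with the highest level was region 117, from 36016342 to 36017014, with 4 probes. It was at 1.43 in CC replicate 1, 1.32 in CC replicate 2 and 1.40 in CC replicate 3, higher than 99.6% of all regions of the array. On the LC arrays it was at 1.13, 1.20 and 1.13, entirely below the CC arrays, and it returns below among the regions called lower. Regions on its sides were far lower, with CC means of -0.02 in region 116 and 0.63 in region 118.

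Region 27, from 34441640 to 34443089 with 7 probes, was the next highest. Its CC arrays were at 1.17, 1.14 and 1.16 and its LC arrays at 1.18, 1.12 and 1.11, so that the groups overlapped. Region 88, from 35398830 to 35400429 with 8 probes, had CC values of 0.94, 0.97 and 0.96 and LC values of 0.92, 1.003 and 0.95. The neighboring region 89, which began 1003 bp further on, had a CC mean of -0.19, so that adjacent promoters of the window could differ by more than 1 log2 unit. Region 21, from 34323209 to 34325496 with 11 probes, was at 0.86, 0.80 and 0.82 on the CC arrays and at 0.83, 0.76 and 0.81 on the LC arrays. In regions 27, 88 and 21 the LC minus CC difference did not pass the test, and the adjusted p was 0.731, 0.99 and 0.704 (limma).

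The lowest level was found in region 175, the last of the window, from 37436866 to 37438595. Its 9 probes gave -2.36, -2.16 and -2.10 on the CC arrays and -1.80, -2.32 and -1.79 on the LC arrays. The groups overlapped, and 8 of these probes never stood well above background in their MeDIP signal, on LC and CC arrays alike, so that this level is limited by background. Region 141, from 36422869 to 36423621 with 4 probes, was at -2.02, -1.88 and -1.88 in CC and at -1.76, -1.85 and -1.82 in LC. In this region all LC arrays lay above all CC arrays, but the difference of 0.11 (standard error 0.05) did not pass the test (limma adjusted p = 0.145). Region 78, from 35268198 to 35269421, and region 20, from 34288870 to 34290448, had CC means of -1.29 ± 0.04 and -1.27 ± 0.03 (SD, n = 3). Background limits these levels in part too. In each group, 1 of 4 probes in region 141, 2 of 6 in region 78 and 3 of 7 in region 20 never stood well above background in their MeDIP signal.

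Regions on both sides of the window's borders were compared as well. The last region before it, from 33978878 to 33980369, had a CC mean of -0.41, and region 1, from 34027079 to 34028114, had 0.02. At the far end, region 175 at -2.21 was followed by a region from 37450841 to 37452415 at -1.87, so that the level was low on both sides of this border. The 8 MHC regions with exactly 3 probes had CC means from -0.79 to 0.56, while the 30 shorter runs that were left out ranged from -6.40 to 1.30.

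Along the window the level was highest in the first 500 kb and lowest toward the far end. In the first interval of 500 kb, with 30 regions, the median region was at 0.09, 0.03 and 0.04 on the CC arrays and at -0.13, -0.003 and 0.01 on the LC arrays. LC thus lay below CC on all arrays there, and LC replicate 1 stood farthest away. In the sixth interval, with only 8 regions, the CC arrays were at -0.58, -0.56 and -0.58 and the LC arrays at -0.43, -0.46 and -0.50, all above CC. The seventh interval, which ends at the window's border and holds 25 regions, had CC medians of -0.39, -0.33 and -0.28 and LC medians of -0.25, -0.20 and -0.31, which overlapped.

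In the other 4 intervals the LC and CC medians overlapped as well. The order of the CC medians was interval 1 (0.05 ± 0.03), 3 (-0.09 ± 0.03), 4 (-0.10 ± 0.03), 2 (-0.26 ± 0.08), 7 (-0.34 ± 0.05), 5 (-0.34 ± 0.09) and 6 (-0.57 ± 0.01), each as mean ± SD over 3 arrays. Intervals 3 and 4 did not differ beyond their spread, nor did intervals 2, 7 and 5. The direction of the single differences also shifted along the window. In interval 1 the LC minus CC difference was below 0 in 21 of 30 regions and in interval 3 in 28 of 39, whereas in interval 7 it was above 0 in 22 of 25 and in interval 6 in 6 of 8. Probe length moved with position too, since 67.3% of the probes of interval 1 but 31.7% and 34.2% of those of intervals 6 and 7 had the shortest length of 45 bases. The part of probe length in this shift was not tested within the intervals.

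**Figure D2:**
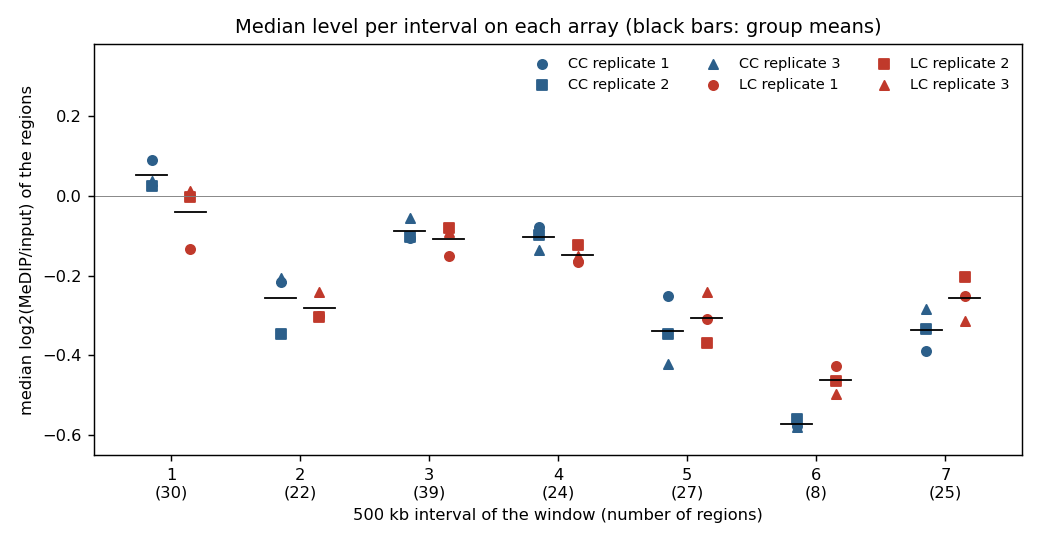
Each point is the median log2(MeDIP/input) of the regions of a 500 kb interval on 1 array, with intervals on the horizontal axis from the start of the window and the number of regions in parentheses. In interval 1 the LC arrays lie below the CC arrays, in interval 6 they lie above them, and in the others the groups overlap.

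The comparison of LC with CC asks whether the maternal diet was followed by a different promoter methylation in adult fat. By limma's moderated test, fitted over all regions of the array, 8 MHC regions (4.57%) were lower in LC and 12 (6.86%) were higher, with a threshold of 0.05 on the adjusted p. Over all 22584 regions 8.84% were called lower and 10.2% higher, so that in this fit the MHC held a smaller share of calls in both directions than the array as a whole. Without adjustment, 24 regions were lower and 26 higher, where 17.2% and 21.5% of all regions were. The median difference over the 175 regions was -0.002 on the log2 scale, against 0.02 over all regions, and the differences ran from -0.34 to 0.27. In 118 regions (67.4%) the LC and CC arrays overlapped. All LC arrays lay below all CC arrays in 27 regions (15.4%, against 20.5% of all regions) and above them in 30 (17.1%, against 24.1%). The calls depended on single arrays. Without CC replicate 1 or CC replicate 3 limma called 0 of all 22584 regions, hence 0 MHC regions. Before adjustment the MHC counts were 13 lower and 15 higher, or 14 and 21. With adjustment limma called 2 MHC regions lower and 2 higher without CC replicate 2, and 4 and 7 without LC replicate 1. Without LC replicate 2 it called 14 and 18, and without LC replicate 3 it called 5 and 7. In these 4 fits the MHC shares, 1.14% to 8% lower and 1.14% to 10.3% higher, were each below the share of all regions in the same fit, 2.29% to 10.5% and 2.72% to 12.7%. The balance of directions depended on the background correction and scaling, with 3 lower and 43 higher after normexp, 5 and 3 after quantile normalization, 4 and 2 after scaling to 1 spread and 8 and 19 with the authors' processed values. For higher calls the order of the shares turned as well: after normexp 24.6% of the MHC regions against 20.7% of all regions were higher, after loess 5.71% against 3.95%, with the authors' values 10.9% against 7.89%, and with the mean of each probe length removed 3.43% against 1.55%. For lower calls the MHC share was the smaller one after normexp (1.71% against 6.76%) and after loess (2.29% against 6.04%). The same held with the authors' values (4.57% against 9.26%). In both directions the MHC share was smaller after quantile normalization (2.86% and 1.71%, against 4.59% and 2.3%). This was also so after scaling to 1 spread (2.29% and 1.14%, against 4.39% and 1.38%).

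The replicate number is also the day of scanning, which holds both groups. With this number as a block limma called 0 of all 22584 regions, hence 0 MHC regions. Before adjustment 22 MHC regions were lower and 24 higher, against 16.6% and 20% of all regions. The smallest limma adjusted p in the MHC was 0.0508. The methods' t-test called 13 MHC regions lower (7.43%, against 13.7% of all regions) and 21 higher (12%, against 15.3%) without adjustment. After adjustment it called 0 of all 22584 regions.

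Of the regions lower in LC, region 12, from 34161205 to 34162711 with 7 probes, differed most. It was at 0.37, 0.32 and 0.26 on the CC arrays and at -0.19, 0.06 and 0.07 on the LC arrays. The groups did not overlap, and LC replicate 1 was the lowest array. This amounted to a difference of -0.34 (standard error 0.07, limma adjusted p = 0.0216). Taken by replicate number, which is by scan day, it was -0.56, -0.26 and -0.18. Regions 13, 14 and 15, the next along the chromosome, also had negative differences of -0.14, -0.15 and -0.17, but none of these passed the test (limma adjusted p = 0.126, 0.0971 and 0.0569).

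Region 62 was short, with 3 probes from 35137702 to 35138154. Its CC arrays were at 0.41, 0.50 and 0.50 and its LC arrays at 0.11, 0.25 and 0.12, so that the groups lay clearly apart. They differed by -0.31 (standard error 0.05, limma adjusted p = 0.0188), which is the smallest adjusted p of the 175 regions, and by replicate number it was -0.30, -0.25 and -0.38. Region 64, from 35164477 to 35164930 and 26322 bp further on, was also lower in LC, at -0.17 ± 0.09 against 0.01 ± 0.03 (SD, n = 3 each). Its difference of -0.18 (adjusted p = 0.0482) was not kept after another background correction, normexp, where it was 0.01. The region between them, region 63, had a difference of 0.04 (adjusted p = 0.544).

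Region 6, from 34065563 to 34067172 with 7 probes, was at 0.13, -0.002 and 0.03 in CC and at -0.32, -0.10 and -0.25 in LC. All LC arrays were below all CC arrays, with a difference of -0.27 (standard error 0.06, limma adjusted p = 0.0255). It was not called after normexp (-0.05, adjusted p = 0.473), with the authors' values (-0.14, adjusted p = 0.0785) or with the median over probes (-0.18, adjusted p = 0.385). The region with the highest level, region 117, was at 1.38 ± 0.06 in CC and 1.15 ± 0.04 in LC (SD, n = 3 each). This was a difference of -0.23 (standard error 0.05, limma adjusted p = 0.0218). Region 117 still had the highest LC mean of the 175 regions. Only 2 of its 4 probes were lower in LC, both of which passed the test alone. In addition, 1 of its 4 probes never stood well above background in the LC input signal.

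Region 117 was the first of several calls close together. Region 118, from 36033839 to 36035606, was at 0.63 ± 0.02 in CC and 0.45 ± 0.05 in LC, and region 121, from 36083688 to 36084451, was at 0.49 ± 0.05 in CC and 0.30 ± 0.10 in LC (SD, n = 3 each). These were differences of -0.18 (adjusted p = 0.0318) and -0.19 (adjusted p = 0.0492). Between regions 118 and 121 the sign was not kept. Regions 119 and 120 had differences of 0.14 and 0.06 that did not pass (limma adjusted p = 0.0518 and 0.499). Regions 122, 123 and 124 had differences of -0.19, 0.14 and -0.20, none of which passed the test. Region 125, from 36130190 to 36131921, and region 126, from 36157006 to 36157907, were higher in LC by 0.20 (adjusted p = 0.0286) and 0.19 (adjusted p = 0.0358). Within this stretch the regions called lower in LC had a median probe length of 45 bases, and those called higher of 52 and 49.5 bases. Region 79, from 35271720 to 35272985, completed the regions lower in LC, with a difference of -0.21 (standard error 0.06, adjusted p = 0.0419), which by replicate number was -0.33, -0.03 and -0.26. It adjoined region 78, one of the lowest of the window, whose difference was -0.17 (adjusted p = 0.0561).

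Of the regions higher in LC, region 146, from 36779094 to 36780838 with 8 probes, differed most. It was at -0.72, -0.60 and -0.61 on the CC arrays and at -0.31, -0.36 and -0.44 on the LC arrays. All LC arrays were above all CC arrays, and both groups stayed below the center of the array. They differed by 0.27 (standard error 0.05, limma adjusted p = 0.0199), and by replicate number it was 0.41, 0.24 and 0.17. Region 146 lay in the sparsest stretch of the window, where regions 143 to 148 were 27814 to 98877 bp apart, and regions 142 to 145 and 147 had positive differences of 0.11 to 0.19 that did not pass the test. In region 148 the difference was -0.04 (limma adjusted p = 0.722).

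Region 44, from 34780542 to 34782168 with 8 probes, had CC values of -0.79, -0.74 and -0.68 and LC values of -0.41, -0.49 and -0.59. This was a difference of 0.24 (standard error 0.06, limma adjusted p = 0.0265), and by replicate number it ranged from 0.09 to 0.38. Region 156, from 37088359 to 37089340, was at -0.84 ± 0.02 in CC and -0.61 ± 0.11 in LC, and region 172, from 37400108 to 37401869, at -0.85 ± 0.09 and -0.65 ± 0.02 (SD, n = 3 each). The CC mean was above 0 in only a pair of the regions higher in LC, region 24, from 34375000 to 34376118, and region 99, from 35645717 to 35646168. They were at 0.08 ± 0.05 and 0.38 ± 0.05 in CC and at 0.29 ± 0.08 and 0.59 ± 0.10 in LC (SD, n = 3 each).

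The other 4 regions higher in LC, with order numbers 34, 69, 72 and 174, differed by 0.16 to 0.18, with CC means from -1.04 to -0.19, the last in region 72. In each of the 20 called regions the LC and CC arrays did not overlap. The calls were made on these same values, so that this adds no support. Leaving out any 1 array moved the difference of each called region by less than 1.5 times. This adds no support either, since the regions were called on these arrays, and without CC replicate 1 or CC replicate 3 none kept its call. In 14 of the 20, each group had at least 1 probe whose MeDIP signal never stood well above background on its arrays. In each group these made up 2 of 4 probes in region 126, 4 of 9 in region 172, 2 of 5 in region 156, 2 of 6 in region 79 and 2 of 8 in regions 44 and 146.

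Of the 20 called regions, 14 were also called after normexp, 8 after loess, 7 after quantile normalization and 5 after scaling to 1 spread. With the authors' values 13 of the 20 were called, with the median over probes 1, and with the mean of each probe length removed 2. Several of the named differences both lost the call and shrank by more than 1.5 times. After normexp this was so for regions 121 (-0.06), 79 (-0.12), 118 (-0.11) and 99 (0.13). After loess it was so for regions 12 (-0.17), 62 (-0.18) and 126 (0.09). Quantile normalization gave -0.14 in region 117, 0.13 in region 125 and 0.12 in region 126. Scaling to 1 spread gave -0.11 in region 117, 0.13 in regions 172 and 125 and 0.09 in region 126. The authors' values gave -0.08 in region 121, -0.03 in region 64, 0.09 in region 172, 0.08 in region 125 and 0.06 in region 126. The median over probes gave 0.18 in region 146, 0.16 in region 44 and 0.09 in region 125. Removing the mean of each probe length gave -0.20 and -0.17 in regions 12 and 62, -0.11 in regions 121 and 64, -0.10 in region 118, 0.05 in region 172, 0.10 in region 125 and 0.04 in region 126.

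**Figure D3:**
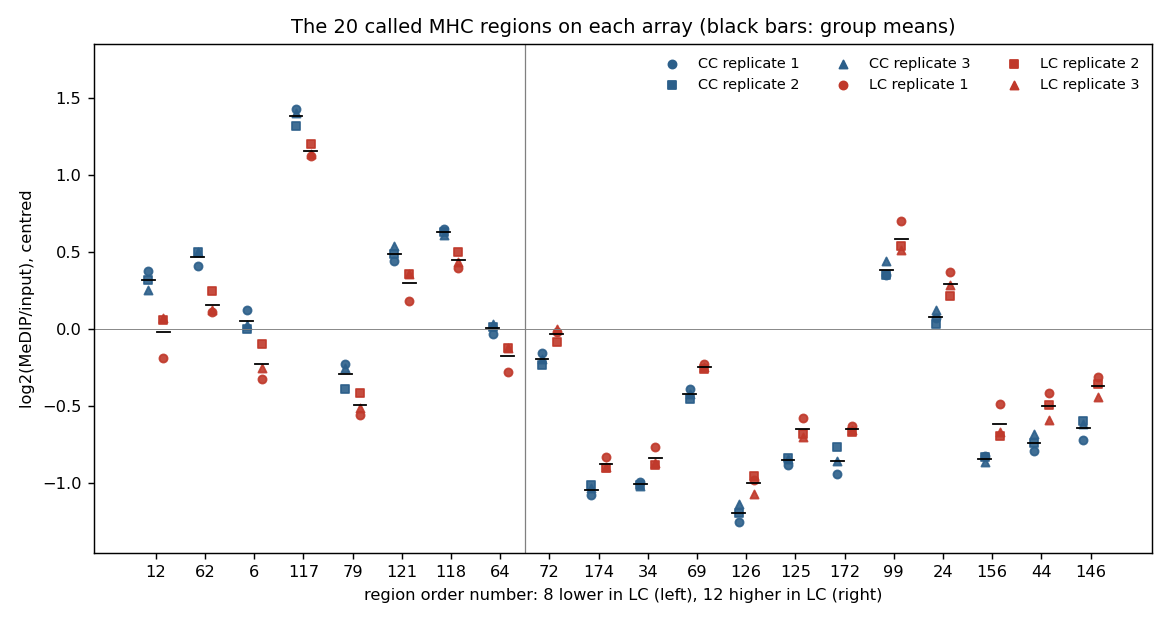
The log2(MeDIP/input) of the 20 called MHC regions on each of the 6 arrays is plotted against region order number, with the 8 regions lower in LC on the left and the 12 higher on the right, each sorted by difference. Black bars are group means, and in every region the LC points lie entirely on one side of the CC points. The regions were called on these same values.

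A region's mean combined probes of very different level. The SD among the probes of a region, taken on the CC means, had a median of 1.31 on the log2 scale over the 175 regions, against 1.34 over all regions. Between mice the median SD of a region was far smaller, at 0.04 in CC and 0.07 in LC. Probes that lie next to each other within a region correlated at 0.07 in their CC level and at 0.21 in their LC minus CC difference, over 1163 pairs that share arrays and sequence context. The widest range was found in region 6, where the probe starting 401 bp after the first was at -4.41 ± 0.06 and the one at 1081 bp at 3.23 ± 0.29 in CC (SD, n = 3 each). In region 6, 1 probe on the CC arrays and 2 on the LC arrays never stood well above background in their MeDIP signal. The low end of this range may therefore be limited by background. Of the 7 probes of region 6, 6 were lower in LC, and the probe at 1081 bp was the one that passed the test alone, with 2.52 ± 0.25 in LC (limma adjusted p = 0.0493).

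Region 18, from 34256350 to 34260654, held the most probes, 19 in all. As a whole it was at 0.11, 0.07 and 0.05 in CC and at -0.15, -0.02 and 0.01 in LC, a difference of -0.13 that did not pass the test (limma adjusted p = 0.108). Single probes of it did. The probe 2939 bp after the first was at 0.63 ± 0.05 in CC and -0.05 ± 0.09 in LC (SD, n = 3 each, limma adjusted p = 0.03), while the probes on both sides of it, at 2621 and 3168 bp, did not pass (adjusted p = 0.119 and 0.0763). The first probe of the region also passed, with a difference of -0.74 (adjusted p = 0.049).

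**Figure D4:**
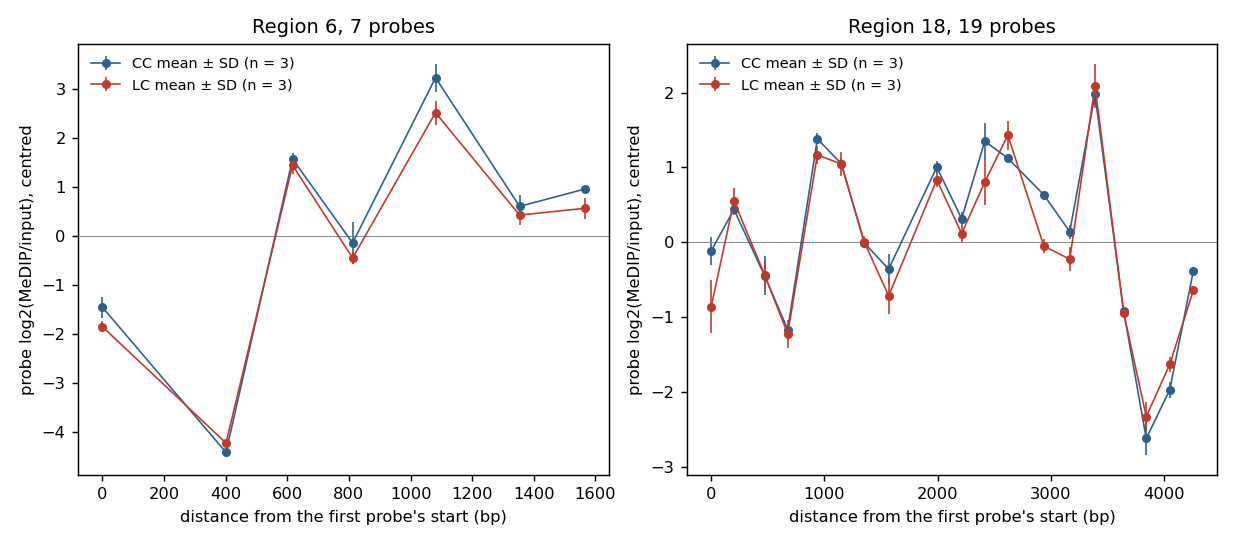
Probe values of region 6 (left) and region 18 (right) are plotted against distance in bp from the start of the first probe, as group means of log2(MeDIP/input) with SD over 3 arrays. Levels range over several log2 units within each region, and the LC and CC lines follow each other.

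Taken probe by probe, 46 of the 1382 MHC probes (3.33%) were lower and 12 (0.868%) were higher in LC (limma, adjusted p under 0.05), against 4.29% and 1.75% of all probes. Before adjustment the counts were 205 lower and 196 higher, against 15.4% and 16.2% of all probes. All 58 called probes had LC arrays entirely on one side of the CC arrays, which adds no support, since they were called on these values. Of the 58, 7 lay in a called region, 49 in a region not called and 2 in a run of fewer than 3 probes. The lower probes had differences from -0.95 to -0.38, and 40 of the 46 were 45 bases long. None of the 12 higher probes had this length, and 6 of the 12 were not well above background in the MeDIP channel on any array. Without any 1 of the CC arrays limma called 0 MHC probes (135 to 183 lower and 101 to 134 higher before adjustment). Without LC replicate 1 it called 15 lower and 3 higher, and without LC replicate 2 it called 68 and 37. With the replicate number as a block 13 were lower and 1 higher, and with the slide as a block 0 and 0 (197 and 132 before adjustment). The balance of directions turned after normexp, with 70 lower and 204 higher, and with the authors' values, with 59 and 87. Shares over all probes are not given for these settings, and whether the MHC differs from the array there was not tested.

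Outside the regions named above, the probe with the largest negative difference lay in region 139, from 36394528 to 36394572. It was at 0.79, 1.12 and 0.59 on the CC arrays and at -0.54, 0.001 and 0.18 on the LC arrays. Its difference of -0.95 (standard error 0.20, limma adjusted p = 0.0405) was thus larger than the spread in either group. The next was a probe of region 74, from 35226443 to 35226487, with 0.63, 0.30 and 0.53 in CC and -0.55, -0.21 and -0.26 in LC. On the higher side, a probe of region 151, from 37005611 to 37005670, was at -2.52 ± 0.12 in CC and -1.85 ± 0.18 in LC, and one of region 140, from 36408982 to 36409041, at -2.00 ± 0.12 and -1.37 ± 0.30 (SD, n = 3 each). Both of these were 60 bases long and not well above background in the MeDIP channel on any array, so that background limits their levels and differences, and no bound follows from them. With the authors' processed values the difference of the probe of region 151 turned to -0.11 (limma adjusted p = 0.318).

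The called regions were spread unevenly over probe lengths. Of the array's probes 49.9% were 45 bases long and 13.2% 60 bases long, whereas the MHC held 58.3% and 6.44%. In the MHC, all 8 regions lower in LC were among the 106 regions with a median probe length of 45 bases (7.55%, against 16.9% of all regions of this length on the array). In contrast, 8 of the 12 higher ones were among the 61 regions with a median over 45 and up to 52 bases (13.1%, against 11.7%), and 2 were among the 8 regions above that (25%, against 32.6%). The remaining 2 regions higher in LC, regions 72 and 156, had the same median of 45 bases as the lower ones (1.89%, against 1.2%). The median difference was -0.04, 0.06 and 0.13 in these 3 classes of MHC regions, and -0.07, 0.06 and 0.18 over all regions. CC levels fell along the same classes, with medians of -0.03, -0.39 and -0.90. After the mean of each probe length had been removed on each array, a step chosen with these results known, 0 MHC regions were lower and 6 were higher by limma (11 and 29 at an unadjusted p under 0.05).

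Both channels of the array were also tested alone, each after quantile normalization between arrays. In the input channel 13 MHC regions (7.43%) were lower and 4 (2.29%) were higher in LC by limma, against 7.12% and 7% of all regions. Before adjustment these were 31 and 13 regions, against 15.6% and 15.9%. In the MeDIP channel limma called 0 of the 175 regions, although 9 were lower and 11 higher before adjustment, and it called 0 of all 22584 regions, of which 5.46% were lower and 5.43% higher before adjustment. With each channel centered on its median instead, the input channel gave 3 lower and 13 higher. Without CC replicate 3 it gave 0 lower, with 25 at an unadjusted p under 0.05, and 1 higher. Without any other single array it gave 1 to 7 lower and 1 to 4 higher. Shares over all regions are not given for these settings of the input channel.

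Of the 20 called MHC regions, 19 differed more in their input than in their MeDIP signal. The median absolute log2 difference of the 20 was 0.14 for input and 0.02 for MeDIP, and input by itself passed the test, with the opposite sign, in 8 (40%). Over the whole array, the input difference was the larger one in 94.4% of the called regions and passed with the opposite sign in 48.5%. Among all 175 MHC regions, called or not, the input difference was the larger one in 136 (77.7%). Region 117 differed by 0.26 in the input channel (limma adjusted p = 0.00598) and by -0.05 in the MeDIP channel (adjusted p = 0.546). Region 146 differed by -0.17 in the input channel (adjusted p = 0.024) and by 0.05 in the MeDIP channel (adjusted p = 0.511). Region 6 was closest to an even split, with 0.13 for input and -0.12 for MeDIP, neither of which passed the test (adjusted p = 0.14 and 0.269). The exception was region 69, from 35200091 to 35201802, with -0.03 for input and 0.09 for MeDIP (adjusted p = 0.73 and 0.359). Over the 175 regions the difference of the ratio correlated at -0.78 with that of the input channel and at 0.43 with that of the MeDIP channel, which share the same arrays. The part of the lower input signal of the LC arrays in the calls was not tested.

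**Figure D5:**
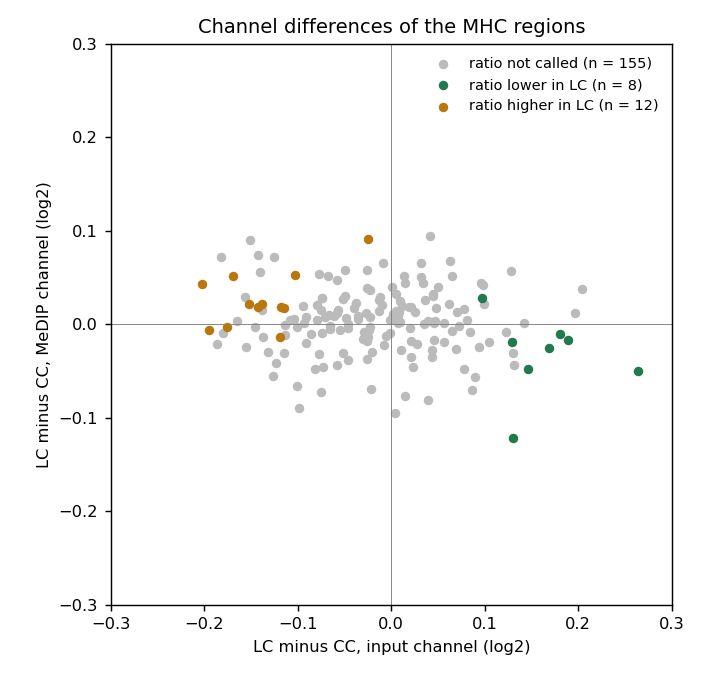
For each of the 175 MHC regions the LC minus CC difference in the MeDIP channel (vertical) is plotted against that in the input channel (horizontal), both on the log2 scale after quantile normalization within the channel. The regions lower in LC lie at positive input differences and those higher in LC at negative ones, while the MeDIP differences lie between -0.12 and 0.10.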

How the data were processed

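MeDIP and input DNA of adipose tissue were hybridized together on 6 promoter arrays, 1 per mouse. Per the file headers, the deposited intensities came from Agilent Feature Extraction 11.0.1.1, which subtracted background, removed spatial trends and applied a linear dye factor to each channel, and probe positions are on mm9. The log10 ratios in the deposited files were used only to check the direction, Cy5 (MeDIP) over Cy3 (input). The log2 values that the authors deposited per probe served as an alternative. Their medians lay between 0.0152 and 0.0332, their direction followed the scanner ratio (r of 0.866 to 0.905), and their scaling and centering are not given in the sources used here.

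After removal of 5827 control features and 362 probes with an outlier flag, 174276 probes remained. The log2 ratio of the processed signals was centered on each array's median and averaged over the probes of a region. Regions and probes were compared over the whole array by the two-sided moderated test of limma 3.58.1 (R 4.3.3), with Benjamini-Hochberg adjustment and a threshold of 0.05. The script was tested on simulated data. Replicates are separate mice per the study's methods, and the replicate number is shared between groups. However, the deviations of same-numbered arrays correlated at -0.16, 0.11 and -0.001, so that the numbers were not taken to pair the mice.

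Named regions were the called regions without overlap between groups (up to 8 per direction, by size of the difference), the 4 highest and 4 lowest in CC, those with the most probes and the widest probe range, and, elsewhere, the 2 called probes per direction that differed most. Edges, neighbors and other regions that are mentioned were chosen after their values were seen. The window, the lists and the tests were chosen with earlier results of these data known. The study's peak search by a Kolmogorov-Smirnov test was not repeated, since its window and normalization are not given in the sources used here and it holds no spread between mice. Gene names, gene parts and sequences were not used here, since the gene table is on another build.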

Additional observations from a re-analysis of the deposited data

How the results depend on the processing

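The main counts were 8 MHC regions lower and 12 higher in LC, and 46 probes lower and 12 higher (limma, adjusted p under 0.05). After normexp (offset 50) they were 3 and 43 regions and 70 and 204 probes. After loess they were 4 and 10 regions and 14 and 0 probes (176 higher at an unadjusted p under 0.05), after quantile normalization 5 and 3 regions and 15 and 2 probes, and after scaling to the same median absolute deviation 4 and 2 regions and 18 and 2 probes. The authors' processed values gave 8 and 19 regions and 59 and 87 probes. Restriction to probes with input well above background gave 14 and 14 regions and 101 and 36 probes. These were 8% and 8% of the MHC regions, against 14.5% and 10.9% of all regions. The replicate block gave 0 and 0 regions (22 and 24 unadjusted) and 13 and 1 probes. The slide block, which rests on replicates 1 and 2, gave 0 and 0 regions (15 and 15 unadjusted) and 0 and 0 probes (197 and 132 unadjusted). With either block 0 of all 22584 regions were called. The median over probes gave 3 and 2 regions (1.71% and 1.14%, against 5.19% and 3.29% of all regions). The methods' t-test gave 13 and 21 regions and 144 and 180 probes unadjusted, and 0 of each after adjustment. Adjusted, it called 0 of all 22584 regions as well. With the mean of each probe length removed, chosen after seeing the data, there were 0 and 6 regions and 5 and 0 probes (11 regions lower and 197 probes higher unadjusted). Of all regions 2.88% and 1.55% were called in this setting. Joining probes at gaps of at most 300 bp gave 11 and 12 of 202 regions (5.45% and 5.94%, against 8.29% and 7.7%). With a trend and robust variance limma gave 8 and 13 regions (4.57% and 7.43%, against 9.34% and 9.31%) and 57 and 14 probes.

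Leaving out 1 array at a time gave 0 to 14 regions lower and 0 to 18 higher, and 0 to 68 probes lower and 0 to 37 higher. The 0 regions came without CC replicate 1 or CC replicate 3, where 0 of all 22584 regions were called. The 0 probes came without any 1 of the CC arrays. In the input channel these settings, also chosen after seeing the data, gave 0 to 7 regions lower, with the 0 without CC replicate 3, and 1 to 4 higher, against 13 and 4 with all arrays. Median centering of that channel gave 3 and 13, and the replicate block 11 and 3. The MeDIP channel gave 0 calls by limma under all of these settings. At an unadjusted p under 0.05 it gave 4 to 12 regions lower and 3 to 17 higher. Shares over the whole array are not given for these channel counts, nor for the probe counts under other settings.

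The median difference of -0.002 was 0.0758 after normexp, 0.0312 after loess and 0.0347 with the authors' values. The median CC level of -0.15 was -0.0698 after normexp, -0.25 after loess, -0.14 with the same median absolute deviation, -0.000509 with the authors' values, -0.12 with only probes well above background, 0.0085 with the median over probes, -0.0912 at gaps of at most 300 bp and -0.15 after removal of the length means. Of the 20 named differences, 2 turned, that of region 64 to 0.0073 after normexp and that of the probe at 37005611 to -0.11 with the authors' values. The cause was not tested. Signal over background limited the MeDIP side, since 82.1 to 83.1% of the MHC probes were well above background in that channel against 94.3 to 98.9% in the input channel.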

Other observations

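Within single called regions the probes did not all move together. All probes lay on the side of the region in 7 of the 20 called MHC regions, 6 held at least 1 probe that passed the test alone on the same side, 14 held none, and 0 held one that passed in the opposite direction. Conversely, 47 of the 175 regions held at least 1 called probe.

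Some calls in the same direction lay near each other, with regions between them that were not called. Regions 69 and 72, both higher in LC, were 11162 bp apart. Regions 70 and 71 between them had differences of -0.01 each (limma adjusted p = 0.87 and 0.884). Regions 172 and 174, also both higher, were 14994 bp apart, with region 173 between them at 0.09 (limma adjusted p = 0.273). These pairs were picked after the calls were seen, and whether calls lie closer together than other regions was not tested. Over the 175 regions the LC minus CC difference and the CC level, which share the CC arrays, correlated at -0.46 (Pearson) and -0.47 (Spearman). Neighbors could differ in level and still have like differences: regions 78 and 79, 2298 bp apart, had CC means of -1.29 and -0.29 and differences of -0.17 and -0.21, the first of which did not pass the test (limma adjusted p = 0.0561).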
